A study of Mus musculus with 16 samples.

Results

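TRAV3 and TRAV8 are families of variable (V) segments of the T cell receptor alpha chain, and their use was followed in T cells taken from mouse liver tumours. Cells were assigned to them by the V segment of their productive alpha chain with the most UMIs (unique molecular identifiers, which count captured RNA molecules). The names of the duplicated copies, marked D or N, were merged into the members TRAV3-1, TRAV3-3, TRAV3-4, TRAV8-1 and TRAV8-2. By this rule 362 of 4935 cells with an alpha chain carried a member, 225 of them a TRAV3 segment and 137 a TRAV8 segment. Of these, 356 also had a beta chain and formed 227 of the 3199 clonotypes. A clonotype is a set of cells of one library whose alpha and beta chains match in V segment, J segment and CDR3 nucleotide sequence.

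The tumours grew from Hepa1-6 cells, a mouse hepatoma line, given with PBS and Matrigel into the left lobe of the liver of C57BL/6 mice, and infiltrating cells were collected on day 5 or day 14. Control mice (CON) were CD4creMatr3WT/WT and knockout mice (KO) CD4creMatr3fl/fl. Both genotypes therefore carried a Cre recombinase under Cd4 control, which is active in thymocytes before the CD4 and CD8 lineages part. Of the 16 samples of the series, 8 are receptor libraries, 2 in each of the 4 groups formed by day and genotype, and the 8 RNA libraries are not analysed here. Receptor contigs do not measure Matr3, the nuclear RNA- and DNA-binding protein matrin 3, so the deletion was not checked, and the CD4 or CD8 identity of a cell is not recorded in them. The labels do not state that the 2 libraries of each group are from different animals. The p-values therefore rest on library-to-library spread, part or all of which may be technical.

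The alpha chain is made in the thymus by joining a V segment to a joining (J) segment, with bases trimmed and added at the join. The V segment encodes the loops CDR1 and CDR2, and the join encodes CDR3, the loop that lies over the peptide of a peptide-MHC complex. Rearrangement at one alpha locus can be repeated, and later rounds tend to use V segments farther from the J segments and J segments farther from the V segments. In C57BL/6 mice a large stretch of the TRAV array is present in repeated copies, so most TRAV names stand for several near-identical segments.

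Each library held 388 to 1236 cells with an alpha chain, 265 to 546 clonotypes and a median of 3 to 5 UMIs per alpha chain. No productive gamma, delta or immunoglobulin chain was found in a called cell. Cells with TRAV11 joined to TRAJ18, the alpha chain of invariant natural killer T cells and here called iNKT-type, made up 25.7 to 30.2% of alpha cells in the day-5 libraries and 3.18 to 5.80% at day 14. Because every share is a part of a whole, this difference enters each share below that counts all cells, and shares among the remaining cells, called conventional, are given beside them. Between libraries 21 cell barcodes were shared, 5 of them on member cells, and no member clonotype was, matched by nucleotide sequence.

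The sequence of each V segment was assembled from the contigs as the most frequent sequence, and it shows how the members differ in the loops that the V segment encodes. The capitals mark CDR1 and then CDR2 in one copy of each of 3 members, read 5′ to 3′ from the first base of the V region after the leader. TRAV3D-3 was the copy named in most TRAV3-3 cells, TRAV3-1 its rare relative, and the plain TRAV8-1 the copy most often named for that member.
TRAV3D-3: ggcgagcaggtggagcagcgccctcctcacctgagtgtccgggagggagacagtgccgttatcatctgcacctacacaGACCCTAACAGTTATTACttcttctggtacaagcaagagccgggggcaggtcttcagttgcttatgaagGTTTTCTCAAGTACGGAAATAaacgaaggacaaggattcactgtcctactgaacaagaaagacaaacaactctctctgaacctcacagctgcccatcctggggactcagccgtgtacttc
TRAV3-1: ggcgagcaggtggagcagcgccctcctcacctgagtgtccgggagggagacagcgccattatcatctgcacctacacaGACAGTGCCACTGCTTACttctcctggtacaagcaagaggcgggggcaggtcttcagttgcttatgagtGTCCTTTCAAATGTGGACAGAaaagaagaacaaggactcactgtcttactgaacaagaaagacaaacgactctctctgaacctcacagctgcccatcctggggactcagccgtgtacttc
TRAV8-1: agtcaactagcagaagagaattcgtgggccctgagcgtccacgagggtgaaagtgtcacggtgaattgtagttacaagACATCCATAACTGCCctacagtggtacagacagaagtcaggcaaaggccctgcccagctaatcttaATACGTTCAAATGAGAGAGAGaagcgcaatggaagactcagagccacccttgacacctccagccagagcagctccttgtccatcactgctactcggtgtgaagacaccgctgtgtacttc
The TRAV3 sequences had 267 bases and the TRAV8-1 sequence 264. TRAV3-1 and TRAV3D-3 were identical at 90.3% of bases, and TRAV3D-3 and TRAV8-1 at 50%. TRAV3-1 and TRAV3-4 shared their CDR1 and differed in 6 bases, A58T, C101A, G118C, G120A, C151T and C258T, counted from the first base shown, which together change 4 residues. C151T is the only one of these in CDR2.

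The copies of TRAV3-3 and of TRAV8-1 had the same CDR1 and CDR2. From TRAV3-3 to TRAV3D-3 the changes were C65T, A127G, G215A and C260T, each of which changes an amino acid in a framework region. From TRAV8-1 to TRAV8D-1 they were T22C, C23T and A121G, also in framework regions, which together change 2 residues. The exact consensus was found in 34 of 39 contigs named TRAV3-3 and in 183 of 185 named TRAV3D-3.

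TRAV3-3 was the main member. It was the alpha V segment of 212 cells, 4.30% of alpha cells, which ranks it 6th of the 47 TRAV segments seen, and it formed 122 clonotypes. TRAV8-2 followed with 69 cells (1.40%, rank 28) and 47 clonotypes and TRAV8-1 with 68 cells (1.38%, rank 29) and 45 clonotypes, and these neighbours in the order did not differ beyond their spread. TRAV3-1 had 7 cells and TRAV3-4 had 6, each cell its own clonotype, and both ranked near the end of the order (ranks 44 and 46). TRAV3-2, the remaining TRAV3 segment of the locus, was in 0 cells under any of its copy names. RefSeq annotates the plain TRAV3-2 and TRAV3D-2 as pseudogenes and TRAV3N-2 as a V segment. Since only productive chains were counted, the absence of the pseudogene names says nothing about their use. The 40-cell minimum for a test was met by TRAV3-3, TRAV8-1 and TRAV8-2, so 3 of the 5 members were tested.

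The share of TRAV3-3 among alpha cells was 3.02% and 3.09% in the day-5 CON libraries (replicates 1 and 2) and 2.37% and 2.58% in the day-5 KO libraries. At day 14 it was 6.96% and 3.46% in the CON libraries and 4.58% and 4.27% in the KO libraries. All 4 day-14 libraries lay above all 4 day-5 libraries. The 95% Wilson interval of day-14 CON replicate 2 (2.35 to 5.05%) covers every day-5 value. That of replicate 1 (5.67 to 8.51%) covers none. These intervals count each cell as an independent draw and are too narrow where clones are large. In replicate 1, 67 of 84 paired TRAV3-3 cells were in clonotypes of 2 or more cells, the largest with 18. The intervals therefore do not weigh one day against the other. The mean was 2.77% ± 0.348 (SD, n = 4) at day 5 and 4.82% ± 1.50 (SD, n = 4) at day 14. Of the 98 TRAV, TRAJ, TRBV and TRBJ segments tested per cell for day 14 against day 5, 10 were called at an adjusted p under 0.05 (10.2%), 3.06% as higher and 7.14% as lower, and none of the 3 tested members was among them. DESeq2 called 4.08% as higher and 8.16% as lower. For TRAV3-3 the log2 fold change of the share was 0.80 (SE 0.33), with an adjusted p of 0.181 by edgeR's quasi-likelihood test.

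Counted by clonotype, so that an expanded clone weighs no more than a single cell, the groups were farther apart. TRAV3-3 was the alpha segment of 3.20%, 2.56%, 1.97% and 2.70% of the clonotypes in day-5 CON replicates 1 and 2 and KO replicates 1 and 2. In the same order it made up 5.83%, 4.43%, 4.91% and 5.56% at day 14. The means were 2.61% ± 0.509 and 5.18% ± 0.631 (SD, n = 4 each), and the days did not overlap. In the fit that counted each clonotype once, TRAV3-3 rose by a log2 fold change of 1.01 (SE 0.26), with an adjusted p of 0.00156 by edgeR. In that fit 20.7% of the 87 segments tested were called, 12.6% higher and 8.05% lower, so a rise was not rare. Leaving out any 1 library gave log2 fold changes of 0.91 to 1.11, with adjusted p-values of 0.00175 to 0.0239.

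The size of this rise depends on the iNKT-type clonotypes in the denominator. Among conventional clonotypes the TRAV3-3 share was 4.67%, 3.55%, 2.81% and 3.91% at day 5 and 6.30%, 4.76%, 5.26% and 6.05% at day 14, again in the order CON 1, CON 2, KO 1 and KO 2. The highest day-5 library and the lowest day-14 library were nearly level. The mean was 3.73% ± 0.773 at day 5 and 5.59% ± 0.710 at day 14, with 4 libraries in each SD, a log2 fold change of 0.61 (SE 0.26) that did not pass edgeR's test (adjusted p 0.263, where 5.88% of 85 segments were called, 3.53% as higher and 2.35% as lower). Per conventional cell the log2 fold change was 0.37 (SE 0.31, adjusted p 0.485 by edgeR, 2.06% of 97 called).

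TRAV8-1 was the alpha segment of 0.648% and 0.976% of alpha cells in the day-5 CON libraries and of 1.18% and 1.29% in the day-5 KO libraries. At day 14 it was 1.86% and 1.80% in CON and 0.996% and 1.37% in KO. The KO libraries lay above the CON libraries at day 5 and below them at day 14. These are 3 to 23 cells per library. The day-14 mean (1.51% ± 0.405) and the day-5 mean (1.02% ± 0.283, SD, n = 4 each) gave a log2 fold change in edgeR of 0.57 with an SE of 0.44 (adjusted p 0.448), and one of 0.73 (SE 0.51, adjusted p 0.309) when each clonotype was counted once. Without iNKT-type cells these values were 0.15 (SE 0.43, adjusted p 0.834 by edgeR) per cell and 0.34 (SE 0.50, adjusted p 0.840) by clonotype. The conventional-cell means were 1.44% ± 0.411 at day 5 and 1.57% ± 0.411 at day 14.

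TRAV8-2 was lower at day 14 per cell, without passing the test. Its share was 2.81% and 2.44% in the day-5 CON libraries, 1.90% and 1.03% in the day-5 KO libraries, 1.29% and 1.11% in the day-14 CON libraries, and 0% and 0.853% in the day-14 KO libraries. The days overlapped only through day-5 KO replicate 2. In day-14 KO replicate 1, 0 of 502 alpha cells used TRAV8-2, which allows a share of up to 0.598% by counting error. The log2 fold change for day 14 against day 5 was -1.32 (SE 0.59, adjusted p 0.225 by edgeR). At day 5 a single clonotype held 4 of 12 paired TRAV8-2 cells in CON replicate 1 and another 8 of 15 in CON replicate 2. By clonotype the log2 fold change was -0.40 (SE 0.49, adjusted p 0.591 by edgeR), with day means of 1.64% ± 0.458 and 1.14% ± 1.02 of clonotypes (SD, n = 4 in each day). These means pool genotypes that differed. The CON mean was 1.76% at day 5 and 1.98% at day 14, and the KO mean 1.52% and 0.292%. Among conventional clonotypes these were 2.52% and 2.14% in CON and 2.18% and 0.318% in KO. Without iNKT-type cells the log2 fold changes were -1.74 (SE 0.60, adjusted p 0.148 by edgeR) per cell and -0.79 (SE 0.48, adjusted p 0.474) by clonotype. The conventional-cell means were 2.86% ± 1.07 at day 5 and 0.847% ± 0.591 at day 14.

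TRAV3-1 was found in 2 cells of day-5 CON replicate 2, 3 of day-5 KO replicate 2 and 2 of day-14 CON replicate 1, and in no other library. TRAV3-4 was found in 1 and 2 cells of the day-5 KO libraries and in 1 and 2 cells of the day-14 CON libraries. At these counts no difference between groups was detectable.

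**Figure D1:**
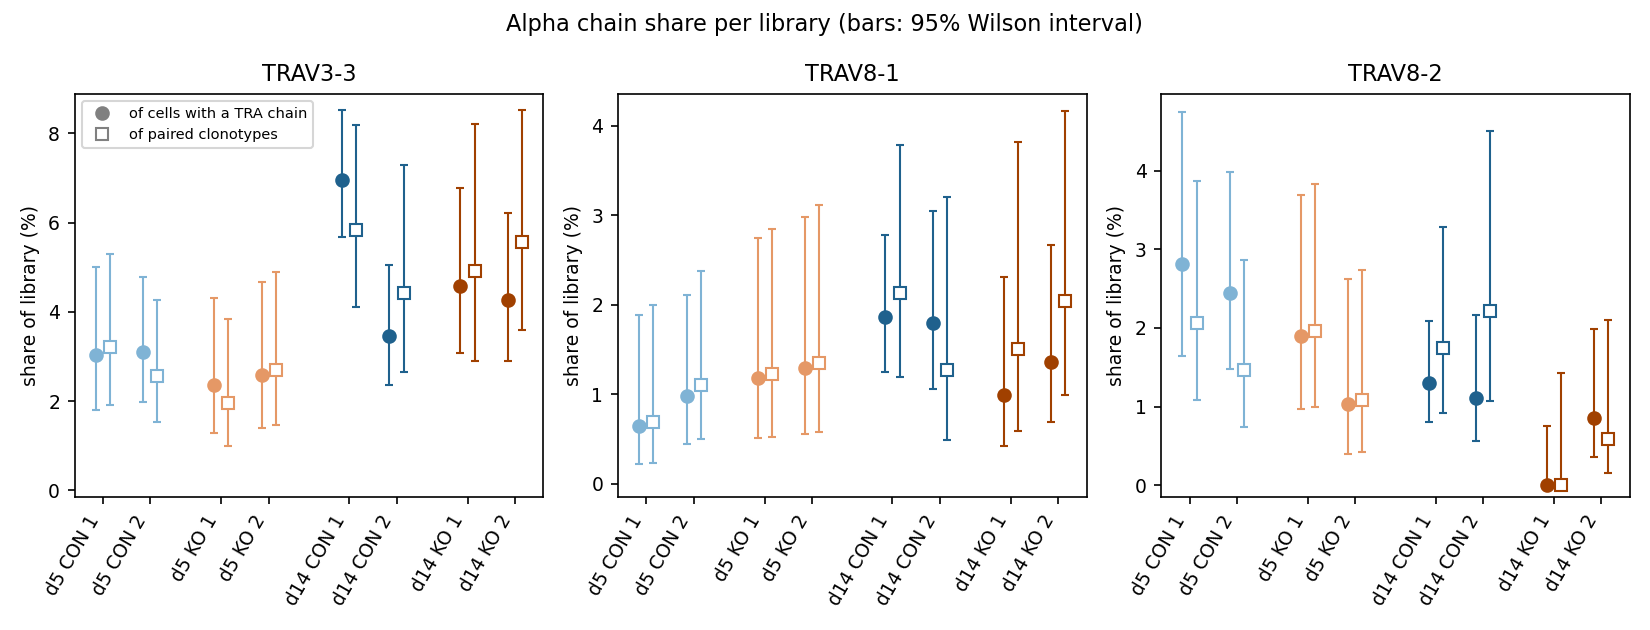
Share of TRAV3-3, TRAV8-1 and TRAV8-2 in each of the 8 libraries, as a percentage of alpha cells (filled circles) and of paired clonotypes (open squares), with 95% Wilson intervals for counting error. For TRAV3-3 the 4 day-14 values lie above the 4 day-5 values in both ways of counting, while the TRAV8-2 values run from 2.81% of cells to 0%.

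**Figure D2:**
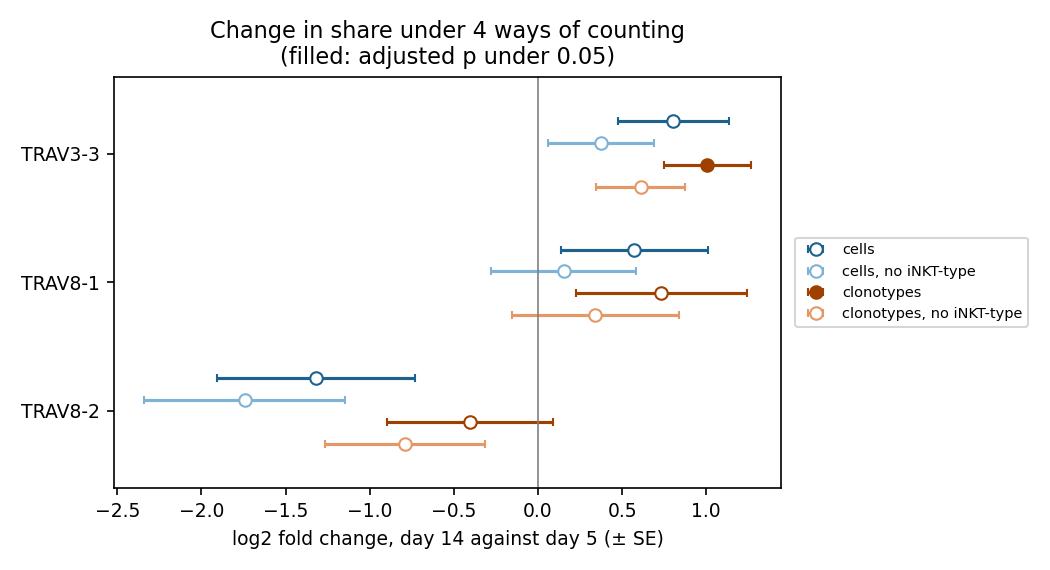
Log2 fold change of each tested member's share, day 14 against day 5, with its standard error, under 4 ways of counting; filled symbols have an adjusted p under 0.05 in edgeR. TRAV3-3 by clonotype, at 1.01, is the only filled symbol, and TRAV8-2 lies below 0 throughout, with both genotypes in each fit.

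The study set KO against CON mice to ask what matrin 3 does in T cells of the tumour, and no segment was called in either comparison of genotype. At day 5, 0% of 98 segments passed, with 0 at an unadjusted p under 0.05 and 0 calls by DESeq2. At day 14, 0% passed, with 11 at an unadjusted p under 0.05 and 0 calls by DESeq2. The log2 fold changes of KO against CON at day 5 were -0.30 (SE 0.52) for TRAV3-3, 0.57 (SE 0.64) for TRAV8-1 and -0.82 (SE 0.83) for TRAV8-2, each with an adjusted p of 0.979 by edgeR. At day 14 they were -0.25 (SE 0.47, adjusted p 0.794) for TRAV3-3, -0.62 (SE 0.56, adjusted p 0.625) for TRAV8-1 and -1.39 (SE 0.94, adjusted p 0.580) for TRAV8-2. With 2 libraries per group these standard errors are of the same order as the changes seen between days. The TRAV3-3 value at day 14 rests on CON replicate 1, without which it was 0.35. By clonotype TRAV8-1 at day 14 had 0.00564 (SE 0.70), with 2.14% and 1.27% of clonotypes in the CON and 1.51% and 2.05% in the KO libraries. By clonotype TRAV8-2 at day 14 had -2.44 (SE 1.00, unadjusted p 0.0157, adjusted p 0.341 by edgeR), and -2.42 without iNKT-type cells (unadjusted p 0.0115, adjusted p 0.247). Its share of clonotypes was 1.75% and 2.22% in the CON and 0% and 0.585% in the KO libraries. The per-cell value of TRAV8-2 was -0.49 without KO replicate 1, the library with 0 such cells, and -5.93 (adjusted p 0.0508) without KO replicate 2, where the fit sets a group at 0 against CON and gives no bound. The difference between the genotype effects of the days passed for 0% of segments too, with 4 at an unadjusted p under 0.05 and 0 calls by DESeq2.

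Beside the members, the day contrast per cell called 1 of 29 other TRAV segments higher (TRAV10) and 1 lower (TRAV11, the iNKT-type segment), with a median log2 fold change of 0.30. Of 34 TRAJ segments TRAJ27 was higher and TRAJ18 lower, with a median of 0.09. Of 20 TRBV segments TRBV3 was higher and 3 were lower, TRBV12-2+TRBV13-2 (a joint name in the deposited tables), TRBV31 and TRBV13-2, with a median of -0.07. With each clonotype counted once, 3 of 25 other TRAV segments rose, TRAV9-1, TRAV7-6 and TRAV4-3, and TRAV11 fell. The median of those 25 was 0.41, below the 1.01 of TRAV3-3 and the 0.73 of TRAV8-1, which did not pass, and above the -0.40 of TRAV8-2. Without iNKT-type clonotypes the median of 24 other TRAV segments was 0.026. The other TRAV segments whose centred log2 share over the 8 libraries lay nearest to TRAV3-3 were TRAV9-4 (mean absolute difference 0.375) and TRAV6-6 (0.477), against a median of 0.618 over 29 candidates. For TRAV8-1 they were TRAV6-6 (0.333) and TRAV9-2 (0.385), against 0.643. For TRAV8-2 they were TRAV12-3 (0.873) and TRAV4-4 (0.890), against 1.21.

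The copy names of a member were found unequally. TRAV3D-3 (GRCm38 chr14:52972532-52973038, annotated as a V segment by RefSeq) was named in 175 of the 212 TRAV3-3 cells, 82.5%, and the plain TRAV3-3 (chr14:53666005-53666506) in the other 37. TRAV3N-3 (chr14:53283669-53284175) was named in 0 cells. The TRAV3D-3 share of TRAV3-3 cells ran from 56% in day-14 KO replicate 2 to 95.3% in day-14 CON replicate 1, with both extremes at day 14. For TRAV8-1 the plain copy (chr14:53469756-53470231) was named in 55 cells and TRAV8D-1 (chr14:52778510-52778995) in 13. For TRAV8-2, TRAV8N-2 (chr14:53345961-53346424) was named in 41 cells, TRAV8D-2 (chr14:53042428-53042891) in 28 and the plain TRAV8-2 (chr14:53738375-53738838) in 0. TRAV3-1 lies at chr14:52580762-52581213 and TRAV3-4 at chr14:53777071-53777576, so these rare members mark the outer ends of the stretch that holds all the copies. A name in 0 cells says only that the authors' pipeline gave no contig that name, since copies with the same sequence cannot be told apart. For the same reason a cell given a copy name may come from another copy with that sequence, so the positions belong to the names. Among the 44 member clonotypes with 2 or more cells, 0 mixed copy names.

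The J partners differed between the copies. The TRAJ segments lie beyond the last TRAV segment, and their numbers fall with distance from the V segments, so they were divided into V-proximal (TRAJ61 to TRAJ40), middle (TRAJ39 to TRAJ24) and V-distal (TRAJ23 to TRAJ1). Among the 95 clonotypes of TRAV3D-3, 6 had a V-proximal J (6.32%) and 52.6% a V-distal one, with a median TRAJ number of 23. Among the 27 of the plain TRAV3-3, which lies nearer to the J segments, 11 had a V-proximal J (40.7%) and 1 a V-distal one (3.70%), with a median of 34. The V-proximal share was higher in the plain copy in 6 of 8 libraries, on 1 to 7 plain-copy clonotypes each, and this difference was not tested.

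The other members did not all follow the position of the copy they were named after, which may not be the copy used. The median TRAJ number was 41.5 in the 12 clonotypes of TRAV8D-1, which lies far from the J segments, and 27 in the 33 of the plain TRAV8-1. It was 27 in the 19 clonotypes of TRAV8D-2 and 22.5 in the 28 of TRAV8N-2, where 1 clonotype (3.57%) had a V-proximal J. TRAV3-1, the farthest from the J segments, had 0 V-proximal joins in 7 clonotypes and a median of 22. TRAV3-4, the nearest, had 3 in 6 and a median of 39.

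**Figure D3:**
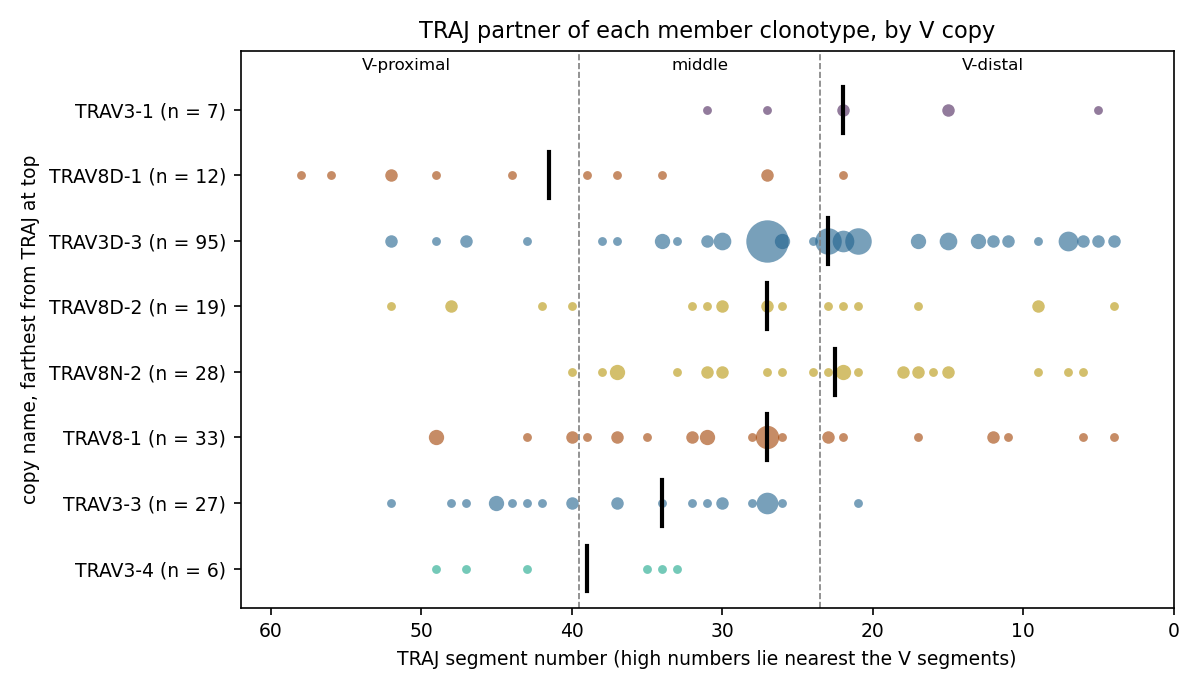
TRAJ number of the clonotypes of each copy name, in the order of the named copies along chromosome 14. The circle area gives the number of clonotypes, the black bar the median, and the dashed lines part V-proximal, middle and V-distal J segments. TRAV3D-3 has a median of 23 and the plain TRAV3-3 of 34, while TRAV8D-1, far from the J segments, has a median of 41.5.

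Taking each family as a whole, 20 of 135 TRAV3 clonotypes (14.8%) and 18 of 92 TRAV8 clonotypes (19.6%) had a V-proximal J, against 597 of 2339 (25.5%) conventional clonotypes with another alpha chain. Each family was set against these other alpha chains within each library by a two-sided exact sign-flip permutation test, with adjustment over 8 comparisons. The V-proximal share of the TRAV3 family was lower in 8 of 8 libraries. The mean difference was -8.36 ± 9.84 percentage points (SD; 17.1% ± 9.01 against 25.4% ± 1.66), with an exact permutation p of 0.00781, the smallest that 8 libraries allow, and an adjusted p of 0.0625. Its mean CDR3 length was lower in 7 of 8 libraries (difference -0.307 ± 0.226 codons, exact p 0.0234, adjusted 0.0625). Its share of beta chains from the TRBV13 family was lower in 7 of 8 (-7.80 ± 7.38 points, exact p 0.0312, adjusted 0.0625). For the TRAV8 family, on the 7 libraries with 5 or more of its clonotypes, mean CDR3 length was lower in 7 of 7 (-0.549 ± 0.360 codons, exact p 0.0156, the smallest possible, adjusted 0.0625). Its V-proximal share (-7.18 ± 13.3 points, adjusted exact p 0.275) and its TRBV13 share (5.03 ± 15.6 points, adjusted exact p 0.542) varied in sign between libraries. None of the 8 comparisons passed 0.05 after adjustment. Mean CDR3 length over all clonotypes was 13.3 codons for TRAV3-3, 13.0 for TRAV8-1, 13.2 for TRAV8-2 and 13.6 for the other alpha chains.

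TRAV3-3 was joined to 33 different TRAJ segments, but TRAJ27 alone took 29 of its 122 clonotypes (23.8%), against 5.64% of the 2339 other conventional clonotypes. TRAJ21 followed with 10 (8.20%, other 3.16%) and TRAJ23 with 9 (7.38%, other 5.52%). Among its 21 beta V segments TRBV3 led with 32 clonotypes (26.2%, other 11.2%), before TRBV12-2+TRBV13-2 with 10 (8.20%, other 7.87%) and TRBV12-2 and TRBV19 with 8 each. TRAV8-1 shared both leaders, with TRAJ27 in 9 of 45 clonotypes (20%) and TRBV3 in 18 (40%). Its next partners were TRAJ49 in 4 and TRAJ31 in 3, and TRBV12-2+TRBV13-2 in 5 and TRBV12-1 in 3. In TRAV8-2 neither led. TRAJ22 and TRAJ30 were each in 4 of its 47 clonotypes, and TRAJ17 in 3, as were TRAJ27, TRAJ31, TRAJ37 and TRAJ9 (6.38% each). TRBV13-3 led its beta chains with 7 (14.9%, other 5.30%), 6 of them at day 5, before TRBV13-1 with 5 and TRBV12-1 with 4. The 7 TRAV3-1 clonotypes used TRAJ15 and TRAJ22 in 2 each, with TRBV1, TRBV2 and TRBV19 in 2 each, and the 6 TRAV3-4 clonotypes had 6 different TRAJ, with TRBV16 in 2.

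With the genotypes pooled, the TRBV3 and TRAJ27 partners of TRAV3-3 belonged mainly to day 14, more clearly in the CON than in the KO libraries. TRBV3 was in 0 of 14, 0 of 14, 2 of 8 and 1 of 10 TRAV3-3 clonotypes in day-5 CON replicates 1 and 2 and KO replicates 1 and 2. In the same order at day 14 it was in 15 of 30, 6 of 14, 1 of 13 and 7 of 19. In percent these are 0, 0, 25 and 10 at day 5 and 50, 42.9, 7.69 and 36.8 at day 14. Day-14 KO replicate 1 stayed within the day-5 range, and the other 3 day-14 libraries lay above it. Other conventional clonotypes had TRBV3 in 8.12% at day 5 (92 of 1133) and 14.1% at day 14 (170 of 1206), with 7.76 to 8.76% in the day-5 libraries and 12.6 to 16.5% in the day-14 libraries. TRAJ27 was in 4 of 46 TRAV3-3 clonotypes at day 5 and 25 of 76 at day 14, and among other conventional clonotypes in 4.15% and 7.05%. Of the clonotypes named TRAV3D-3, it was in 1 of 9 and 0 of 11 in the day-5 CON libraries and 11 of 27 and 4 of 10 at day 14. In the KO libraries these were 2 of 7 and 1 of 8, then 1 of 11 and 3 of 12. The plain copy in KO had 0 of 1 and 0 of 2, then 0 of 2 and 3 of 7.

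Both partners together were in 1 of 46 TRAV3-3 clonotypes at day 5 (2.17%) and 21 of 76 at day 14 (27.6%). The day-14 clonotypes were 10 of 30 and 5 of 14 in the CON libraries and 1 of 13 and 5 of 19 in the KO libraries. Other conventional clonotypes had both in 0 of 1133 at day 5 and 18 of 1206 at day 14 (1.49%). Read from the other side, 46 conventional day-14 clonotypes had TRBV3 with TRAJ27. Of those, 21 (45.7%) used TRAV3-3 and 6 (13.0%) TRAV8-1, although TRAV3-3 made up 5.71% and TRAV8-1 1.95% of the 1331 conventional day-14 clonotypes.

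With the genotypes pooled, TRBV3 was more frequent at day 14 with both copies of TRAV3-3, which was not tested copy by copy. For TRAV3D-3 this was seen in the CON libraries only. There TRBV3 was in 0 of 9 and 0 of 11 of its clonotypes at day 5 and in 14 of 27 and 4 of 10 at day 14. In the KO libraries it was in 2 of 7 and 1 of 8 at day 5 and in 1 of 11 and 2 of 12 at day 14. The pooled counts follow. TRBV3 was in 3 of 35 TRAV3D-3 clonotypes at day 5 and 21 of 60 at day 14, and in 0 of 11 and 8 of 16 of the plain copy. TRAJ27 went from 4 of 35 to 19 of 60 and from 0 of 11 to 6 of 16. In TRAV8-1, TRBV3 was in 5 of 19 clonotypes at day 5 and 13 of 26 at day 14, and TRAJ27 in 2 of 19 and 7 of 26. In TRAV8-2, TRBV3 was in 2 of 29 and 2 of 18.

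**Figure D4:**
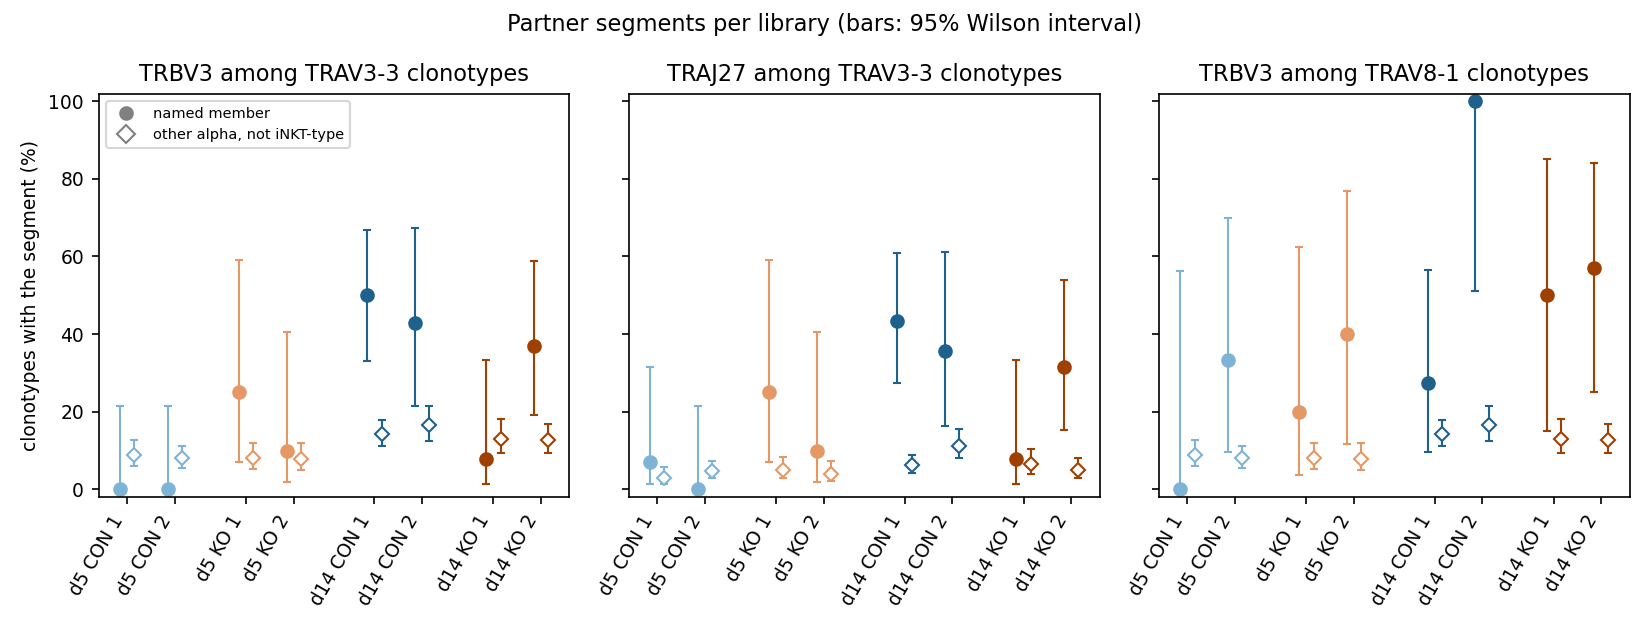
Share of clonotypes per library with TRBV3 or TRAJ27 among TRAV3-3 clonotypes and with TRBV3 among TRAV8-1 clonotypes, beside the same share among other conventional clonotypes. For TRAV3-3 with TRBV3, 3 of the 4 day-14 libraries lie between 36.8 and 50%, and day-14 KO replicate 1 is at 7.69%.

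The alpha chain CDR3 sequences show what the repeated TRAJ27 joins had in common. They are shown from the first base of the CDR3 codons to the last, and the capitals mark the bases that belong to neither the V nor the J consensus. The first is the largest TRAV3-3 clone, with 18 cells in day-14 CON replicate 1, the next was found in all 4 day-14 libraries, the one after it in 2 day-14 libraries, and the last is a TRAV8-1 join found in both day-14 KO libraries.
TRAV3D-3 with TRAJ27, largest clone: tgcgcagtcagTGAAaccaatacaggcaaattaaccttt
TRAV3-3 with TRAJ27, 4 libraries: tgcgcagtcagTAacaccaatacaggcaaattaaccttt
TRAV3-3 with TRAJ27, 2 libraries: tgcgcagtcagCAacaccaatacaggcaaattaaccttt
TRAV8-1 with TRAJ27, 2 libraries: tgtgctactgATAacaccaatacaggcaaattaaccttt
All 4 are 39 bases, or 13 codons, long, and both joins named TRAV3-3 keep the whole V end tgcgcagtcag and the whole J end acaccaatacaggcaaattaaccttt with 2 bases between them. The join of 4 libraries was in 28 cells and 9 clonotypes, with 18, 4, 5 and 1 cells in day-14 CON replicates 1 and 2 and KO replicates 1 and 2, and in no day-5 library. Of its 9 clonotypes 8 had TRBV3 and 1 TRBV12-2. The TRAV3-3 join of 2 libraries was in 5 cells and 3 clonotypes with 3 different beta V segments, 1 of them TRBV3. Its codons encode the same residues as those of the join of 4 libraries. Both TRAV8-1 clonotypes had TRBV3. Only the join of 4 libraries was found in 3 or more libraries among all member alpha chains. A TRAV3-3 join to TRAJ22, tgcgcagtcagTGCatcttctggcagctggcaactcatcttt, was found in 1 day-5 KO and 1 day-14 KO cell, with different beta chains.

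The beta chains shown here differed in the middle of the loop. Those of the 18-cell clone, of a 9-cell clone with the alpha CDR3 found in 4 libraries, and of the 8-cell TRAV8-1 clone of day-14 CON replicate 2 all used TRBV3, and are shown to compare the middle of the loop. Capitals mark the stretch GACTGGGG, which is part of the germline TRBD2 segment, where present.
TRBV3 with TRBJ2-5, 18-cell clone: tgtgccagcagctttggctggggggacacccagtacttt
TRBV3 with TRBJ2-4, 9-cell clone: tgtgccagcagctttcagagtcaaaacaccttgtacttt
TRBV3 with TRBJ2-2, 8-cell clone: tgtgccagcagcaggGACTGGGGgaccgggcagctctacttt
The stretch, searched on the coding strand of the beta CDR3, was in 459 of all 3199 clonotypes (14.3%), all of them with a TRBJ2 segment. It was in 11 of the 32 clonotypes that join TRAV3-3 to TRBV3 (34.4%), 10 of the 18 that join TRAV8-1 to TRBV3 (55.6%), and 46 of the 265 with TRBV3 and no member (17.4%). Without TRBV3 it was in 13 of 90 TRAV3-3 clonotypes (14.4%) and 5 of 27 TRAV8-1 clonotypes (18.5%). These shares were not tested. Not every such clone had a beta chain unlike the others. A 3-cell TRAV3D-3/TRAJ27 clone of day-14 KO replicate 2, with TRBV3 and TRBJ2-4, differed in bases from the 9-cell clone in both CDR3s. Its codons encode the same residues in both.

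Most member cells at day 14 belonged to expanded clonotypes, those with 2 or more cells, as did most other conventional cells. In TRAV3-3 these held 11 of 53 paired cells at day 5 (20.8%) and 104 of 155 at day 14 (67.1%). In TRAV8-1 they held 0 of 19 and 31 of 49 (63.3%), and in TRAV8-2 12 of 39 (30.8%) and 15 of 28 (53.6%). Other conventional cells were in expanded clonotypes in 8.17% of cases at day 5 and 63.0% at day 14. The day-5 TRAV3-3 share came from 2 libraries, with 36.8% in CON replicate 2 and 40% in KO replicate 1 and 0% in the others. At day 14 it was 79.8% and 62.5% in the CON libraries and 59.1% and 36% in the KO libraries. Within libraries the TRAV3 family differed from other alpha chains by 3.12 ± 16.5 points (adjusted exact permutation p 0.633, n = 8) and the TRAV8 family by 3.36 ± 12.7 points (adjusted exact permutation p 0.571, n = 7), less than the spread between libraries.

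The largest member clones were the 18-cell TRAV3D-3/TRAJ27 clone with TRBV3 and a 10-cell TRAV8-1/TRAJ49 clone with TRBV1 and TRBJ2-7, both in day-14 CON replicate 1, and no other member clone reached 10 cells. These are 1 of 81 TRAV3 and 1 of 44 TRAV8 clonotypes at day 14. Among other alpha chains 31 of 1206 day-14 clonotypes had 10 or more cells, and the largest had 111. The largest TRAV8-2 clone was found at day 5, with 8 cells of TRAV8D-2, TRAJ23 and TRBV17 in CON replicate 2. The alpha CDR3 of the TRAV8-1 clone is the shortest of those shown, with a single base between V and J, and that of the TRAV8-2 clone has 8 such bases.
TRAV8-1 with TRAJ49, 10 cells: tgtgcAacgggttaccagaacttctatttt
TRAV8D-2 with TRAJ23, 8 cells: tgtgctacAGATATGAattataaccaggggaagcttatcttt

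**Figure D5:**
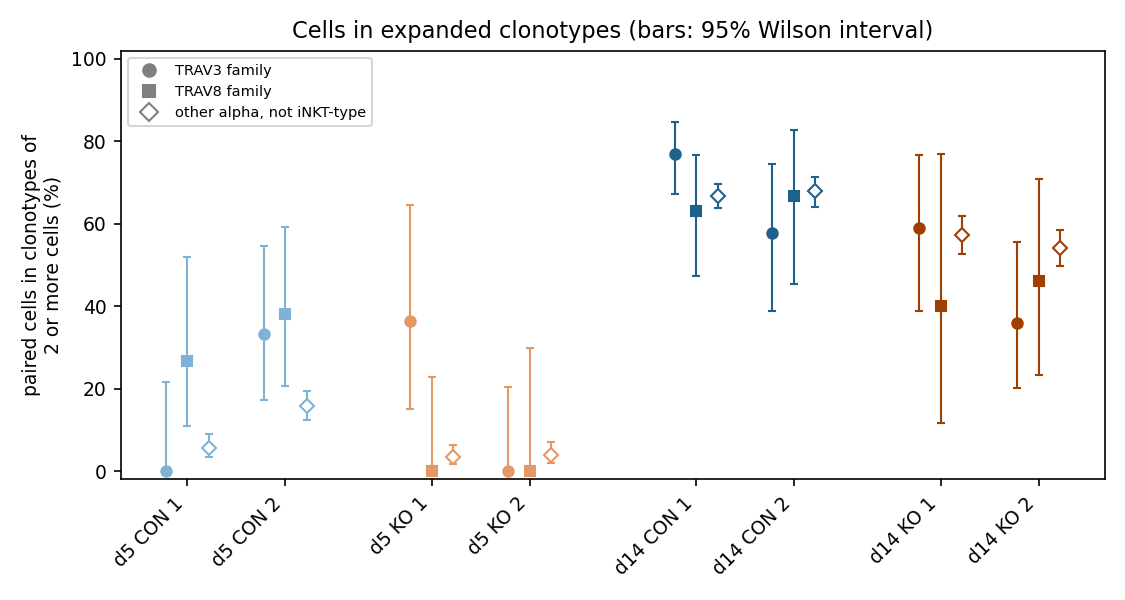
Percentage of paired cells in clonotypes of 2 or more cells, per library, for the TRAV3 family, the TRAV8 family and other conventional alpha chains. Other chains lie between 3.36 and 15.7% at day 5 and between 54.1 and 67.9% at day 14, and the families spread more widely around them.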

How the data were processed

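Tumours were dissociated and single cells captured with a 10x Genomics 5′ kit, per the labels' protocols. The submitters' processing notes list Cell Ranger 3.1.0, CASAVA 1.8, Seurat 4.0.0 and R 4.1.2 and the build GRCm38 (mm10), without roles. The deposited tables give each assembled contig with whole-number counts of UMIs and reads, not normalized, per the file headers. The deposited contig lengths were not used.

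Cells were barcodes called as cells by the authors, with high-confidence productive contigs, and the TRA and TRB chain with most UMIs stood for the cell. Cells with 2 or more TRB or 3 or more TRA chains were kept as possible doublets. Merging copy names left 47 of 88 TRAV names. No column of another sample was used. The V sequence of TRAV8-2 is not reported here. Segment use was tested on cells per segment with edgeR 4.0.16 (quasi-likelihood F test, R 4.3.3), with the number of cells having that chain as offset, 40 or more cells per segment, all 8 libraries in each fit, Benjamini-Hochberg adjustment over all segments tested and a threshold of 0.05. Family values within libraries were compared by exact sign-flip permutation tests (NumPy 2.4.6). DESeq2 1.42.0 was an alternative, and TMM factors, no filter, clonotypes in place of cells, cells without iNKT-type chains, chains of 2 or more UMIs, no doublets, copies kept apart, every productive chain, single days and single libraries left out were the others. The fit was checked on simulated data. Wilson intervals (95%) and the limit that 0 allows (3 counts) cover counting error only, and those for cells ignore that cells of a clone are not independent. Likeness used log2 shares after adding 0.5 cells.

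Named were all members and copies, the 3 leading TRAJ and TRBV partners of each, the largest clone of each, clones of 10 or more cells, alpha CDR3s in 3 or more libraries, the 2 nearest TRAV segments of each tested member, and up to 3 called segments per list and direction. The remaining CDR3s printed, and the stretch searched in beta chains, were chosen after their values were seen. The members and lists were chosen with earlier results of these data known, and the clonotype fits without iNKT-type cells or single libraries were added after seeing the data. A fit over pairs of segments, also added then, is not reported, since the leading member pairs met its minimum of 10 clonotypes only through their day-14 clonotypes.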

Additional observations from a re-analysis of the deposited data

Results flagged for a closer look

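The TRAV8-1 difference between genotypes had opposite signs at the 2 time points, and neither passed a test. The KO mean share of alpha cells was 0.425 percentage points above the CON mean at day 5 and differed by -0.649 points from it at day 14, with both KO libraries on that side each time. The test of the difference itself gave a log2 value of -1.19 (SE 0.84, adjusted p 0.901 by edgeR). By clonotype the day-14 means were 1.70% in CON and 1.78% in KO, so the sign at day 14 was seen per cell only. TRAV3-4 had the same pattern, with KO minus CON at 0.376 points on day 5 and -0.179 points on day 14, on 6 cells in all. In the fit with no minimum number of cells the difference was -7.42 (SE 2.39, adjusted p 0.796 by edgeR), which is fitted against groups at 0 and is no bound.

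Second productive alpha chains, which enter only the alternative that counts every productive chain, used a member in 23 of 563 cases (4.09%). In the day-5 KO libraries the mean was 7.29% (2 chains in each library), above the 2.86% and 2.33% of the day-5 CON libraries (1 chain in each). At day 14 the groups overlapped, with 5.37% and 2.24% in CON and 8.16% and 2.06% in KO.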

How the results depend on the processing

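The replicate numbers did not pair the libraries (correlations of deviations from -0.121 to 0.0696). With replicate number as a block, the day contrast called 7 segments in place of 10, with TRAV3-3 at 0.78 (adjusted p 0.237 by edgeR), and the other contrasts called 0. The day contrast called 18 segments with each clonotype counted once, 2 without iNKT-type cells and 5 by clonotype without them. Leaving out 1 library gave 5 to 12 calls for the day contrast, 0 to 0 for genotype at day 5, 0 to 5 at day 14 and 0 to 1 for the interaction. TRAV3-3 then had log2 fold changes of 0.56 to 0.99 and TRAV8-2 of -1.65 to -0.998 between days.

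Against other alpha chains including iNKT-type, 3 family comparisons passed (adjusted exact p 0.0417 each): TRAV3 CDR3 length -0.578 codons, TRAV3 with TRBV13 -18.1 points and TRAV8 length -0.844 codons. TRAV8 with TRBV13 changed sign to -6.43 points. This setting changes the chains compared against, since iNKT-type chains all share the same V and J segment by definition. These passes therefore cannot be told apart from the makeup of the iNKT-type chains and are not read as traits of the families. With each cell counted, TRAV3 V-proximal share (-13.4 points), length (-0.403 codons) and TRBV13 (-9.90 points) passed, as did TRAV8 length (-0.655 codons). That setting repeats the J segment, CDR3 length and beta segment of a clone for each of its cells. The largest TRAV3-3 clone of day-14 CON replicate 1 thus counts 18 times, and by clonotype none of these comparisons passed. Without 1 library in turn, the TRAV3 values ran from -9.49 to -5.60 points, -0.364 to -0.275 codons, -9.98 to -6.42 points and, for expansion, -1.15 (without day-5 KO replicate 1) to 6.15 points. The TRAV8 values ran from -10.4 to -4.14 points, -0.613 to -0.441 codons, 0.628 to 7.37 points and 0.183 to 5.24 points.

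Signs of single members changed as follows, none of them in a called value. The TRAV3-3 interaction was 0.06, and -0.0505 with TMM factors, -0.0241 without doublets and -0.35 to 0.66 without 1 library. TRAV3-3 at day 14, KO against CON, was -0.65 to 0.35 without 1 library. TRAV8-1 in the same contrast was 0.00564 by clonotype and 0.00926 by clonotype without iNKT-type cells. The TRAV8-2 interaction was -5.11 to 0.33 without 1 library, and its day-14 genotype value -5.93 to -0.49, where the lowest rests on a KO library with 0 cells and is no bound. With copies kept apart no value of a whole member exists: TRAV3D-3 alone had 0.84 between days and -0.46 for the interaction, and TRAV8N-2 alone -0.82 and 0.22. The cause of these shifts was not tested. Members with 7 or fewer cells were below the depth at which any contrast could be read.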

Other observations

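Members were also found among non-productive alpha contigs, where 1 library stood apart. Over all libraries 227 of 1729 non-productive alpha contigs in called cells (13.1%) used a member, 162 of them TRAV3-3. In day-14 KO replicate 1 the share was 31.1% (73 of 235), against 7.53 to 15% in the other 7 libraries. There a non-productive TRAV3D-3/TRAJ9 contig was in 60 of the 63 cells of a single clone, whose productive receptor was TRAV7-4/TRAJ5 with TRBV20. Counted once per clonotype, members made up 4 of 93 (4.30%) in that library and 8.64 to 15.8% in the others. In day-14 CON replicate 1 a non-productive TRAV3-3/TRAJ15 contig was in 10 of the 41 cells of a TRAV10/TRAJ27 clone with TRBV12-1.

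A second productive alpha chain was found in 24 of 356 paired member cells (6.74%) and in 533 of 3786 paired cells with another conventional alpha chain (14.1%), a difference that was not tested. These are counts of cells, not of clonotypes, and cells of a clone are not independent. The largest day-14 clone had 111 cells among the other chains and 18 in the TRAV3 family.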
